A study of Mus musculus with 91 samples.

Results

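The genes described here are the zinc metalloproteases that cut matrix and cell surface proteins, with their inhibitors. They were chosen by symbol alone (*Mmp*, *Adam*, *Adamts*, *Adamtsl* and *Timp* followed by a number), and 74 of the 19938 genes with a transcript cluster of their own on the array met this rule. A transcript cluster is the set of probes that is summarised to a single value. Where a gene had several clusters (4 members), the cluster with the highest mean over the sorted-cell arrays stood for it. Tests refer to the 49 of the 74 members that exceeded a log2 value of 6 on 2 or more of the arrays of any group.

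Cells were sorted from XY and XX mouse gonads at E11.5, at E12.5 and at E13.5 by the fluorescence of a reporter, and their RNA was amplified and hybridized to Affymetrix Mouse Gene 1.0 ST arrays. Each of 30 groups (5 cell populations, both sexes, 3 stages) has 3 arrays, which makes 90 sorted-cell arrays, and 1 array of a whole newborn mouse entered no comparison. XY supporting cells carried *Sry-EGFP* at E11.5 and *Sox9-ECFP* at E12.5 and E13.5, whereas XX supporting cells carried *Sry-EGFP* at all stages. From E12.5 on, sex and reporter can therefore not be told apart in supporting cells, and the same holds for stage and reporter in XY supporting cells. Interstitial (XY) and stromal (XX) cells were sorted by a reporter of their own. The *Sry-EGFP* transgene does not encode SRY. The reporter for germ cells was *Oct4-EGFP*, and that for endothelial cells *Flk1-mCherry*. A further population, sorted with *aSma-EYFP*, appeared to the study to be mixed and to include supporting cells at E11.5, with leaky expression of the transgene given as another possibility. The *Flk1-mCherry* mice were CD-1 and the *aSma-EYFP* mice FVB by the labels, and *Sry-EGFP*, *Sox9-ECFP* and *Oct4-EGFP* embryos came from crosses of CD-1 with C57BL/6J, so that strain changes with the reporter. Endothelial cells at E11.5 were sorted with part of the mesonephros. Germ cells were also sorted with the mesonephros attached, at all stages by the methods and at E11.5 by the labels. Replicates were separate pools of embryos from 1 or more litters, and the p-values measure the spread between such pools.

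The array values, log2 intensities, had medians between 6.56 and 6.81 per array, and arrays of the same group correlated at 0.939 or more. The array that lay farthest from all others was replicate 2 of E11.5 XY endothelial cells. The cell type labels were checked against marker genes. Higher levels than in each other lineage were found for 9 of 10 Sertoli markers in supporting cells, for 9 of 9 interstitial and mesenchymal markers in interstitial/stromal cells, for 10 of 10 germ cell markers and for 10 of 10 endothelial markers. By the same rule, only 2 of 9 pre-granulosa markers were highest in supporting cells and 1 of 8 fetal Leydig markers in interstitial/stromal cells. These means take both sexes together. Endothelial cells were also higher than each other lineage for 10 of 11 macrophage and leukocyte markers and 3 of 5 red blood markers. Germ cells were so for 2 of 7 mesonephric epithelium markers.

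Matrix metalloproteinases (MMPs) cut collagens, gelatin and other matrix proteins, either as secreted enzymes or, for the membrane-type members, at the cell surface. The ADAMs are membrane proteins that in many cases shed the outer part of other surface proteins such as growth factors, Notch and cadherins, although some members lack a working catalytic site and act in adhesion. The ADAMTS proteins are secreted and cut proteoglycans such as versican and aggrecan or process procollagen, and the ADAMTS-like proteins have their ancillary domains without the protease. The tissue inhibitors of metalloproteinases (TIMPs) block MMPs, and TIMP3 also blocks several ADAM and ADAMTS enzymes. *Adamts16*, *Adamts19* and *Adamts9* have been studied in gonads of mice or other animals, and *Adamts1* acts in ovulation.

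The families differed in how many members reached the limit for testing. It was reached by 17 of 18 ADAMTS genes, 4 of 5 ADAMTS-like genes, 4 of 5 membrane-type and 9 of 15 secreted MMP genes, 3 of 4 TIMP genes and 12 of 27 ADAM genes. Among the ADAM genes that stayed below it were *Adam2*, *Adam3*, *Adam5*, *Adam18*, *Adam24*, *Adam29* and *Adam32*, several of which are known from adult testis and sperm. *Timp4*, the only TIMP below the limit, had group means between 5.01 and 5.75. *Mmp9*, the gelatinase of leukocytes and invading tissue, passed the limit narrowly, with group means between 5.72 and 6.16. *Adam17*, which sheds tumor necrosis factor and EGF family ligands, was called in no comparison, and its group means lay between 8.81 and 9.39. Group means spanned more than 2-fold for 25 of the 49 members tested (51%), against 52.5% of all clusters tested.

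Of the secreted MMP genes below or near the limit, 8 lie together on chromosome 9 (*Mmp3*, *Mmp7*, *Mmp8*, *Mmp10*, *Mmp12*, *Mmp13*, *Mmp20* and *Mmp27*). They encode stromelysins, collagenases and other enzymes known for tissue repair and inflammation. Their group means lay between 4.62 and 6.14, with no gene ranging by more than 0.47 over the 30 groups, and only *Mmp7* and *Mmp10* passed the limit. The promoters of 6 of these 8 genes hold a match to the AP-1 motif TGANTCA at positions -95 to -35 relative to the start of transcription. *Mmp3* and *Mmp13* are shown because their matches lie close to the start, and because *Mmp13* is the member that the whole newborn mouse array showed most clearly above the sorted cells. Sequences are the RefSeq promoters of GRCm38.p6, 250 bases before to 50 bases after the start, 5′ to 3′ on the strand of the gene, for *Mmp3* at chr9:7445572-7445871 and for *Mmp13* at chr9:7272264-7272563. Capitals mark the AP-1 match.
Mmp3: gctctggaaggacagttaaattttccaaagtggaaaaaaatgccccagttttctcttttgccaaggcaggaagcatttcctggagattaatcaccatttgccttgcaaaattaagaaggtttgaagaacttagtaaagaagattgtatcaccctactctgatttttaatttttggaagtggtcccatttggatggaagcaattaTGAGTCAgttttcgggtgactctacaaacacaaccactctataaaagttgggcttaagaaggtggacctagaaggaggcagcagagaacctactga
Mmp13: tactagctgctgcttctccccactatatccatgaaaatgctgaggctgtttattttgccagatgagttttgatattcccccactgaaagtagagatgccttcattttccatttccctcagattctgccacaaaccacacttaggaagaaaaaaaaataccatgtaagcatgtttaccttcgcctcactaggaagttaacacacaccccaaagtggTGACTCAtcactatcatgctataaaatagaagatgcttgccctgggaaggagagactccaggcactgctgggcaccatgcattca
Over all members, the AP-1 motif (searched on both strands) was found in 10 of 49 promoters (20.4%), against 7.81% of the 32851 promoters in the table. Of the members with an AP-1 match, only *Adam19*, *Mmp7* and *Mmp10* passed the limit for testing, and the others could therefore not be called. *Adam19* was called in at least 1 comparison, *Mmp7* and *Mmp10* in none. A match describes letters and was not tested as a binding site.

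Further promoters are shown for members whose levels set the populations apart, as described in the following paragraphs. They belong to *Adamts9* (higher in XY supporting cells), *Adamts1* (higher in XX supporting cells), *Timp2* (highest in interstitial and stromal cells) and *Adam22* (highest in germ cells). They lie on the minus strand of GRCm38.p6 at chr6:92943485-92943784, chr16:85803064-85803363, chr11:118355362-118355661 and chr5:8368111-8368410, in this order, and capitals mark matches to the GC box GGGCGG, the site of Sp1-type factors, or its reverse complement.
Adamts9: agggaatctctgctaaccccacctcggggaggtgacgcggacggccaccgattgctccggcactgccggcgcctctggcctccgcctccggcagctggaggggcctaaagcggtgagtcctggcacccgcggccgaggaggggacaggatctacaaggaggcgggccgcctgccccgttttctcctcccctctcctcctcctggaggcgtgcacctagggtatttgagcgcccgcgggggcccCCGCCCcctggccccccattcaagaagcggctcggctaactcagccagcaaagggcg
Adamts1: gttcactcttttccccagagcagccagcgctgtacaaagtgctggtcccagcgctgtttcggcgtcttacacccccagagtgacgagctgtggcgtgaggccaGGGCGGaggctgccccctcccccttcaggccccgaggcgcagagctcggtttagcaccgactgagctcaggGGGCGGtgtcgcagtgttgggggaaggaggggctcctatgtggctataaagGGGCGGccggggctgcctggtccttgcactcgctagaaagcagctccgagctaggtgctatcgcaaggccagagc
Timp2: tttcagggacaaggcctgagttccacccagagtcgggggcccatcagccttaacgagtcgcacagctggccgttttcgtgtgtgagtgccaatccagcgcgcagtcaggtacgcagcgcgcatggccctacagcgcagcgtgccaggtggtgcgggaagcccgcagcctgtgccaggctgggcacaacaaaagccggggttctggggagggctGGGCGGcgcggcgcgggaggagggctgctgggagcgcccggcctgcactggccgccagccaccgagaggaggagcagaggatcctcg
Adam22: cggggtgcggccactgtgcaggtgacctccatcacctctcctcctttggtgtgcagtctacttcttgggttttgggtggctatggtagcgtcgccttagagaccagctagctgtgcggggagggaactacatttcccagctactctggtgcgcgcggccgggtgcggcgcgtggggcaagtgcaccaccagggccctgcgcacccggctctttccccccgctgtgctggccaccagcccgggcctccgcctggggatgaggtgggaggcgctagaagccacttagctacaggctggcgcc
GC boxes (searched on both strands) were present in 25 of the 49 member promoters (51%) and in 35.7% of all promoters in the table. *Adamts1* had 3 such matches, *Adamts9* and *Timp2* 1 each, and *Adam22* none. Motifs of gonadal factors were rare in these windows on either strand, at 2.04% of member promoters for SF1 (AAGGTCA, against 4.72% of all), 4.08% for SOX factors (AACAATG, against 3.78% of all) and 4.08% for TCF/LEF (CTTTGAT, against 3.73% of all).

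The lineage in which a member was highest or lowest was asked by setting the mean of the 6 groups of a lineage against that of each of the other lineages. A member was called where limma, with Benjamini-Hochberg adjustment over all 16859 clusters tested, gave an adjusted p under 0.05 together with a fold over 1.5, in every one of these comparisons. The members called by this rule are given below for each lineage, beside the share of all clusters. No member was lowest in interstitial/stromal (0.0415% of all clusters) or endothelial cells (1.61%). In sorted pools, fewer cells of a type and less RNA per cell cannot be told apart.

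Some of the proteases and inhibitors, a minority of the members, had their lowest levels in germ cells. Others did not, and *Adam19* had its highest group mean there (9.87, XY at E11.5). Lower levels than in each other lineage were found for 9 of the 49 members in germ cells (18.4%, against 6% of all clusters), and these included all 3 TIMPs tested. *Timp3* ranged from 6.00 to 7.39 over the 18 germ cell arrays, against 8.07 to 10.14 in supporting, 9.41 to 10.40 in interstitial/stromal and 9.91 to 10.79 in endothelial cells. No germ cell array reached the lowest array of another lineage, and the mean of germ cells was lower by 2.66 to 3.99 on the log2 scale than those of the other lineages (largest adjusted p = 3.8e-42). *Mmp14*, the membrane-type protease that activates pro-MMP2 together with TIMP2, read 6.22 to 6.98 on germ cell arrays, against 8.11 to 10.05 on the arrays of supporting and interstitial/stromal cells. *Mmp2*, a gelatinase, and *Timp2* had the same direction, and the smallest differences of germ cells to another lineage were -1.26 and -0.96 (fold 2.40 and 1.95). *Adam10*, which sheds cadherins and cuts Notch receptors, was lower in germ cells by 2.08 or more. The other members lowest in germ cells were *Adamts1*, *Adamts9*, *Mmp16* and *Timp1*.

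A single member, *Adam22*, was highest in germ cells (2.04% of members, against 9.78% of all clusters). ADAM22 has no protease activity and is known from neurons as the receptor of LGI1. It averaged 7.62 over the 6 germ cell groups and exceeded the next lineage by 1.29 (2.44-fold, largest adjusted p = 2.84e-34).

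Interstitial and stromal cells were highest for 5 members (10.2%, against 1.89% of all clusters). These were *Mmp2* with a mean of 10.46, *Mmp16* (a membrane-type protease) with 8.49, *Timp2* with 9.18, *Adamts5* (an aggrecanase that also cuts versican) with 7.05 and *Adamts12* (which cuts cartilage oligomeric matrix protein) with 7.93. The smallest differences to another lineage were 1.36, 1.28, 1.12, 0.68 and 0.67 in the same order. *Mmp2* thus had a mean at least 2.56-fold above that of every other lineage, although it overlapped with XY supporting cells, whose arrays reached 10.46 where the lowest interstitial/stromal array had 9.86.

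Supporting cells were highest for *Adamts16*, a secreted protease expressed in the developing gonad and kidney, and for *Mmp23* (4.08% of members, against 2.24% of all clusters). *Adamts16* averaged 9.06 and lay 1.52 above the next lineage (2.87-fold, largest adjusted p = 2.62e-28). *Mmp23* averaged 8.63 and lay 0.71 above it (1.63-fold, largest adjusted p = 4.34e-17). *Adam19*, which processes neuregulins, was lowest in supporting cells, with 6.53 to 7.16 over the 18 arrays, against 7.50 to 9.03 in interstitial/stromal, 8.51 to 9.95 in germ and 8.52 to 9.48 in endothelial cells. The arrays of supporting cells did not overlap with those of any other lineage, and the smallest difference was -1.71 (3.27-fold, largest adjusted p = 4.28e-36). A call of this kind was made for 2.04% of members and 1.14% of all clusters.

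Endothelial cells were highest for *Adam15* and *Adam12* (4.08% of members, against 4.2% of all clusters). *Adam15*, an ADAM with an integrin-binding motif known from endothelium, had 7.65 to 8.78 on the 18 arrays of endothelial cells, against 6.75 to 7.26 on the arrays of the other lineages. *Adam12*, known from muscle and mesenchyme, averaged 8.26 and lay 0.97 above the next lineage. Macrophage and leukocyte markers (11 genes) averaged between 7.19 and 7.90 in the 6 endothelial groups, against 6.25 to 6.39 in the interstitial/stromal groups, and their part in the levels of endothelial members was not tested.

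**Figure D1:**
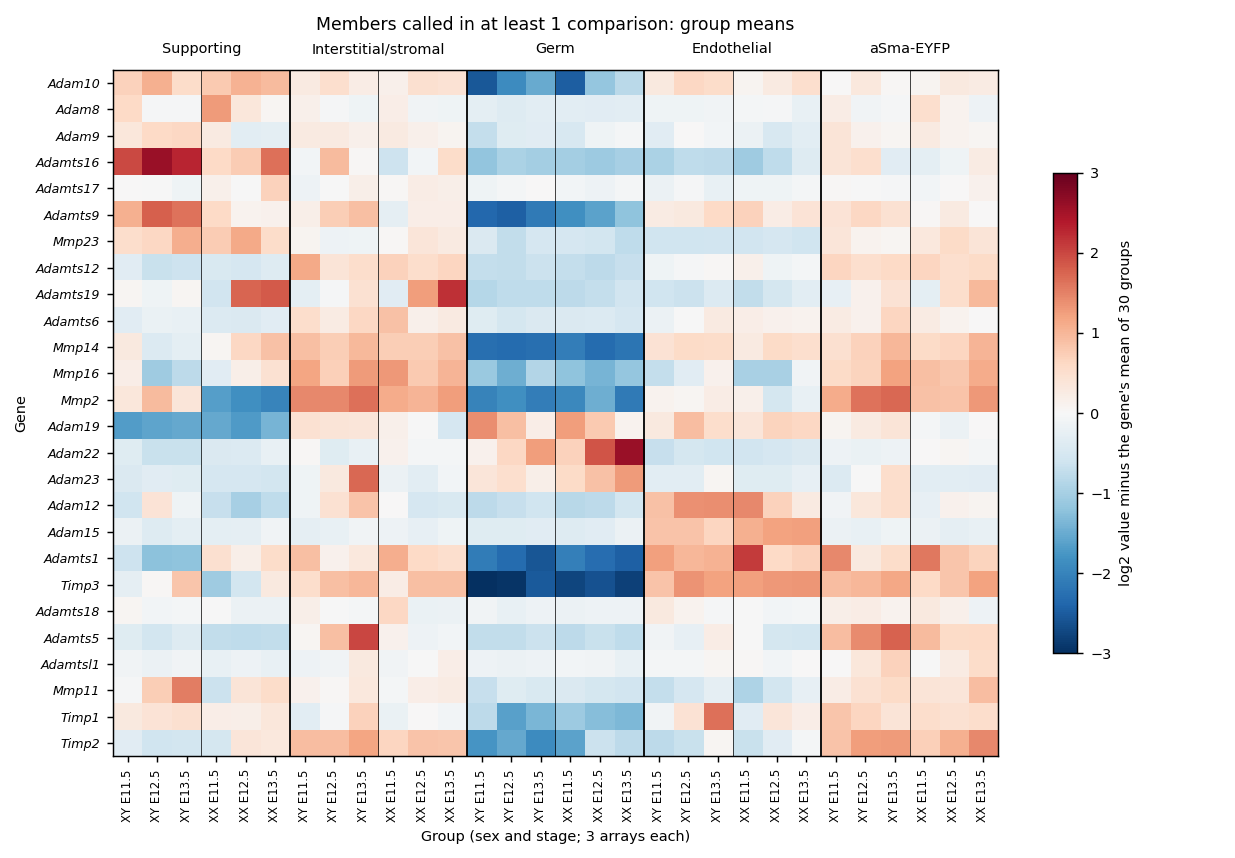
Members called in at least 1 comparison (rows) in the 30 groups of 3 arrays (columns, by population, sex and stage). Colour gives the log2 group mean minus the mean of all 30 groups for that gene, so that rows compare groups and not genes. The germ cell columns are blue for *Timp3*, *Mmp14*, *Adamts1*, *Adamts9* and *Adam10* and red for *Adam22*.

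XY and XX cells were then compared within each population and stage. Summed over the 5 populations, 8 of 245 member tests were called at E11.5 (3.27%, against 1.65% of all tests), 24 at E12.5 (9.8%, against 5.9%) and 30 at E13.5 (12.2%, against 8.29%). A call was made at least once in the direction of XY for 13 members and in the direction of XX for 12, with 4 members in both lists. In no comparison of the sexes were 28 of the 49 members called. The share of all clusters called at least once was not counted, so these numbers of members have no background and say nothing particular to the members. Of the 118 calls made between the sexes or between E13.5 and E11.5, 80 were made again without each array of the comparison in turn. Calls that were not are given with the value without that array, or are left unnamed.

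Supporting cells, the precursors of Sertoli cells in XY and of granulosa cells in XX gonads, differed most between the sexes. At E11.5 7 members were called (14.3%, against 6.44% of all clusters), at E12.5 10 (20.4%, against 16.7%) and at E13.5 12 (24.5%, against 16.1%). Both directions were present at each stage, with 5 members higher in XY (background 3.77% of all clusters) and 2 higher in XX cells (2.67%) at E11.5. At E12.5 these numbers were 5 (9.67%) and 5 (7.08%), and at E13.5 they were 6 (8.63%) and 6 (7.51%). Fetal Leydig markers (8 genes) averaged 7.90 in XY and 6.54 in XX supporting cells at E13.5, where 5 of the 8 were called higher in XY cells, and their part in these differences was not tested.

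By the highest-mean cluster of each member, *Mmp2*, the gelatinase, differed most, although a dimmer cluster of *Adamts17* differed more at E13.5 (-3.35). The XY arrays read 9.52, 9.37 and 9.49 at E11.5, 9.72, 10.46 and 10.06 at E12.5 and 9.22, 9.60 and 9.64 at E13.5. On the XX arrays *Mmp2* read 7.61, 7.62 and 7.20 at E11.5, 7.34, 7.11 and 7.39 at E12.5 and 7.08, 7.29 and 7.09 at E13.5. No XX array came near an XY array at any stage. The XY level was higher by 1.98 ± 0.18 (standard error, 3.96-fold, adjusted p = 3.99e-14) at E11.5, when both sexes carried *Sry-EGFP*, by 2.80 ± 0.18 (6.97-fold, adjusted p = 1.13e-21) at E12.5 and by 2.33 ± 0.18 (5.03-fold, adjusted p = 5.56e-18) at E13.5. XX supporting cells thus stayed near the germ cell range of 6.93 to 7.91.

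*Adamts16* had 9.16, 9.73 and 9.28 on the XY arrays at E11.5, against 8.01, 7.96 and 8.08 on the XX arrays. At E12.5 it read 9.93, 10.02 and 10.07 in XY cells, against 8.35, 8.00 and 8.20 in XX cells. The arrays did not overlap, and the differences were 1.37 ± 0.18 (adjusted p = 1.28e-08) and 1.83 ± 0.18 (adjusted p = 1.43e-13). At E13.5 the XX level was higher than at the earlier stages, with 9.29, 8.66 and 9.30, against XY values of 9.68, 9.72 and 9.72. The difference of 0.62 at that stage rested on XX replicate 2, without which it was 0.41 (adjusted p = 0.109).

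*Adamts9*, a versican-cutting protease that is conserved from the worm GON-1, which shapes the gonad of *Caenorhabditis elegans*, averaged 10.52 ± 0.21 (SD, n = 3) in XY and 10.04 ± 0.30 in XX cells at E11.5, and these arrays overlapped. It had 11.14, 11.25 and 11.33 in XY cells at E12.5, against 8.89, 10.23 and 9.55 in XX cells, and 10.95, 11.14 and 11.19 in XY cells at E13.5, against 9.73, 9.25 and 9.76 in XX cells. All XY arrays of these stages lay above all XX arrays (differences 1.69 ± 0.27 with adjusted p = 3.6e-07 and 1.51 ± 0.27 with adjusted p = 3.78e-06). *Adamts9* has 6 clusters on the array, and all 6 were called higher in XY cells at E12.5 and at E13.5. In interstitial/stromal cells 3 of them were called higher in XY cells at E12.5 and 1 at E13.5, but not the highest-mean cluster.

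Smaller differences in the direction of XY were found for *Timp3*, *Mmp11*, *Adam9* and *Adam12*. *Timp3* averaged 9.04 ± 0.27 in XY and 8.24 ± 0.16 in XX cells at E11.5 (difference 0.80, adjusted p = 0.00124). At the later stages its difference stayed under the limit on the fold, at 0.58 and 0.53. *Mmp11*, a stromelysin of remodelling stroma, was higher in XY cells at E13.5, with 9.66, 9.99 and 9.60, against 8.81, 8.39 and 9.08 in XX cells (difference 0.99, adjusted p = 4.87e-05). *Adam12* read 7.64, 7.79 and 7.56 in XY cells at E12.5, against 6.26, 6.09 and 6.38 in XX cells (difference 1.42, adjusted p = 8.58e-14), and at E13.5 its difference of 0.62 was at the limit on the fold (0.56 without XY replicate 2, 0.55 without XX replicate 3). *Adam9*, named here after its values were seen, was higher by 0.91 at E12.5 and by 0.93 at E13.5. At E11.5 the calls of *Mmp11* (0.60) and *Adamts19* (0.63) in the direction of XY were not made again without XX replicate 3, when they were 0.44 (adjusted p = 0.261) and 0.54 (adjusted p = 0.0832). Leaving out XY replicate 2 (0.56) or 3 (0.53) or XX replicate 2 (adjusted p = 0.0558) ended the call of *Mmp11*, and leaving out XY replicate 1 (0.56) that of *Adamts19*.

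In the other direction, *Adamts19* separated the sexes from E12.5 on. Its XY arrays read 6.98, 6.90 and 6.63 at E11.5, 6.70, 6.71 and 6.54 at E12.5 and 7.06, 6.68 and 6.79 at E13.5. The XX arrays read 6.35, 6.25 and 6.02 at E11.5, 8.42, 8.29 and 8.89 at E12.5 and 8.31, 8.98 and 8.57 at E13.5. XX cells were thus below XY cells at E11.5 and above them at both later stages, where XY minus XX was -1.88 ± 0.18 (3.68-fold, adjusted p = 4.27e-14) and -1.78 ± 0.18 (3.43-fold, adjusted p = 3.88e-13).

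*Adamts1*, a versican-cutting protease of the ovary, was higher in XX supporting cells at all stages. It read 7.43, 8.38 and 7.46 in XY cells at E11.5, against 8.81, 8.93 and 8.87 in XX cells, and 7.12, 7.28 and 7.12 in XY cells at E13.5, against 8.70, 8.98 and 9.12 in XX cells. No XY array reached an XX array at these stages. XY minus XX was -1.11 ± 0.25 (adjusted p = 0.000991) at E11.5, -1.42 ± 0.25 (adjusted p = 5.2e-06) at E12.5 and -1.76 ± 0.25 (adjusted p = 3.59e-08) at E13.5. In a fit of the 2 groups alone the call at E11.5 was lost (adjusted p = 0.0628).

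*Mmp14*, *Mmp16* and *Timp2* shared a pattern over the stages. All 3 overlapped or differed by less than the limit between the sexes at E11.5, and all 3 were higher in XX cells at E12.5 and E13.5. *Mmp14* read 8.48, 8.43 and 8.63 in XY cells at E13.5, against 9.78, 9.48 and 9.80 in XX cells (XY minus XX -1.17 ± 0.16, adjusted p = 7.18e-09). *Mmp16* had 6.57, 6.85 and 6.54 in XY cells, against 7.98, 7.83 and 7.90 in XX cells (-1.25 ± 0.21, adjusted p = 1.22e-06). *Timp2* had 7.27, 7.93 and 8.01 in XY cells, against 8.57, 8.40 and 8.80 in XX cells (-0.86 ± 0.19, adjusted p = 0.000292). In none of these did an XY array reach an XX array at E13.5. At E12.5 the differences were -1.05, -1.24 and -0.97 in the same order. At E12.5 and E13.5, where sex and reporter cannot be told apart, *Mmp2* thus ran in the opposite direction to the genes of its known activators, *Mmp14* and *Timp2*, in supporting cells. At E11.5 *Mmp2* was called and *Mmp14* and *Timp2* were not.

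*Adam8*, known from leukocytes, was called at E11.5, higher in XX cells, with 7.19, 7.38 and 7.32 in XY cells, against 7.87, 7.96 and 8.11 in XX cells (-0.68 ± 0.10, adjusted p = 3.47e-07). At E13.5 it averaged 6.67 in XY and 6.76 in XX cells. *Adamts17* has 5 clusters, and was singled out after its values were seen. Its highest-mean cluster averaged 8.84 in XY and 9.64 in XX cells at E13.5 (-0.81). Another of its clusters read 6.22, 6.13 and 6.08 in XY cells at E13.5, against 9.72, 9.86 and 8.89 in XX cells, a difference of -3.35. At E11.5 that cluster averaged 6.49 in XY and 6.40 in XX cells. The choice of cluster therefore decided how large the difference of *Adamts17* was, and 4 of its 5 clusters were called higher in XX cells at E13.5.

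**Figure D2:**
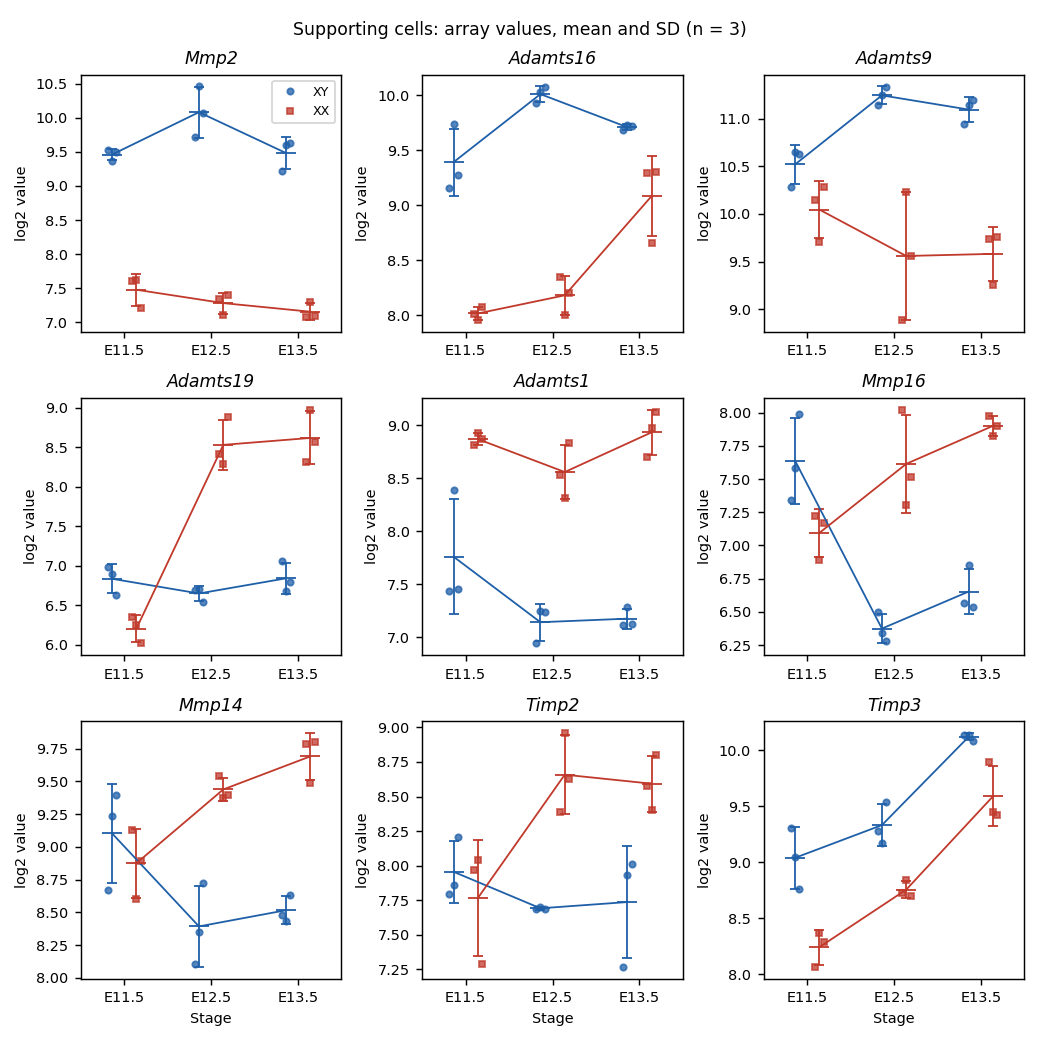
Log2 values of 9 members in supporting cells by stage. Points are arrays (XY left, XX right at each stage), horizontal marks and bars are the mean and SD of 3 arrays, and each panel has its own axis. *Mmp2* and *Adamts16*, and from E12.5 on *Adamts9*, are higher in XY cells, *Adamts1* in XX cells, and *Adamts19*, *Mmp16*, *Mmp14* and *Timp2* become higher in XX cells after E11.5.

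Between E11.5 and E13.5, supporting cells of both sexes gained *Timp3* and *Mmp11*. *Timp3* gained 1.08 in XY (adjusted p = 4.05e-06) and 1.35 in XX cells (adjusted p = 3.8e-08) on the log2 scale, and *Mmp11* 1.59 in XY (adjusted p = 1.9e-09) and 1.20 in XX cells (adjusted p = 3.67e-06). In XX cells *Adamts19* rose by 2.41 ± 0.18 (adjusted p = 6.78e-18), *Adamts16* by 1.07, *Mmp14* by 0.82 and *Mmp16* by 0.81. *Mmp16* fell by 0.99 in XY cells (adjusted p = 0.00016). *Adam8* fell by 0.63 in XY cells and by 1.22 in XX cells. In all, 5 members were called in XY supporting cells (10.2%, against 12.2% of all clusters) and 8 in XX supporting cells (16.3%, against 7.44%), and in XY cells the reporter changed over the same interval.

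In interstitial and stromal cells no member was called between the sexes at E11.5 (limma, 0 of 49, against 0.214% of all clusters), where 6 members had an unadjusted p under 0.05. At E12.5 5 members were called (10.2%, against 4.31%), 4 higher in XY (background 2.15%) and 1 in XX cells (2.16%), and at E13.5 6 (12.2%, against 5.84%), 5 higher in XY (3.48%) and 1 in XX cells (2.35%). Markers of other cell types moved with sex in this sort. Fetal Leydig markers (8 genes) averaged 8.35 (arrays 7.86 to 8.62) in XY and 6.47 (6.45 to 6.51) in XX cells at E12.5, and 9.64 (9.38 to 9.88) in XY and 6.48 (6.36 to 6.56) in XX cells at E13.5, with 6 of 8 called at each stage. Sertoli markers (10 genes) averaged 8.82 in XY and 7.09 in XX cells at E12.5 (9 of 10 called), and pre-granulosa markers (9 genes) 7.20 in XY and 8.96 in XX cells at E13.5 (8 of 9 called higher in XX). The part of these cells in the differences of the members was not tested.

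*Adamts5* rose with stage in XY interstitial cells and not in XX stromal cells. Its XY arrays read 6.69, 6.54 and 6.63 at E11.5, 7.40, 7.37 and 7.62 at E12.5 and 8.32, 8.87 and 8.56 at E13.5. The XX arrays read 6.49, 6.68 and 6.94 at E11.5, 6.06, 6.27 and 6.93 at E12.5 and 6.28, 6.14 and 7.09 at E13.5. The sexes overlapped at E11.5 and were apart at both later stages, by 1.04 ± 0.21 (adjusted p = 0.000187) and 2.08 ± 0.21 (4.24-fold, adjusted p = 1.37e-12). From E11.5 to E13.5 XY cells gained 1.96 ± 0.21 (adjusted p = 1.56e-11).

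*Adam23*, a catalytically inactive ADAM known from the nervous system, had a similar course. It averaged 6.25 in XY and 6.20 in XX cells at E11.5. At E13.5 it read 8.31, 8.03 and 7.94 in XY cells, against 6.48, 6.02 and 6.37 in XX cells (1.80 ± 0.16, 3.49-fold, adjusted p = 8.97e-15). At E12.5 the XY arrays were uneven, with 6.88, 6.84 and 6.26, and the difference of 0.61 did not pass without XY replicate 1 (0.50) or 2 (0.52) or without XX replicate 1 (0.57). *Adam12* read 7.88, 7.61 and 7.61 in XY cells at E12.5, against 6.70, 6.58 and 6.97 in XX cells, and 7.89, 8.41 and 8.03 in XY cells at E13.5, against 6.80, 6.58 and 6.98 in XX cells. The arrays of the sexes did not overlap, and *Adam12* was higher in XY cells by 0.95 (adjusted p = 2.42e-07) and 1.33 (adjusted p = 5.3e-12).

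*Adamts16* differed in interstitial/stromal cells at E12.5, with 8.41, 8.15 and 8.59 in XY cells, against 7.48, 7.24 and 7.32 in XX cells (1.03 ± 0.18, adjusted p = 1.53e-05). At E13.5 it averaged 7.45 ± 0.46 in XY and 7.96 ± 0.09 in XX cells (-0.51, adjusted p = 0.0572). Sertoli markers averaged 8.19 in XY cells at E13.5, with arrays between 7.64 and 8.72, against 7.07 in XX cells. Their part in the values of *Adamts16* was not tested. *Timp1*, an X-linked inhibitor of secreted MMPs, read 8.26, 9.34 and 8.41 in XY cells at E13.5, against 7.98, 8.18 and 7.51 in XX cells. Its difference of 0.78 was not called without XY replicate 2 (0.44, adjusted p = 0.352) or XX replicate 3 (0.59, adjusted p = 0.137). *Adam19* averaged 8.84 in XY and 7.98 in XX cells at E13.5 (0.86, adjusted p = 4.78e-06, or 0.0601 in a fit of the 2 groups alone).

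The member higher in XX stromal cells was again *Adamts19*. It read 6.75, 6.85 and 6.66 in XY cells at E12.5, against 8.75, 7.66 and 7.71 in XX cells, and 7.17, 7.31 and 7.25 in XY cells at E13.5, against 8.72, 8.82 and 9.40 in XX cells. At E11.5 both sexes lay between 6.24 and 6.58. XY minus XX was -1.29 ± 0.18 at E12.5 (adjusted p = 9.2e-08, or 0.0511 in a fit of the 2 groups alone) and -1.73 ± 0.18 at E13.5 (3.32-fold, adjusted p = 4.73e-12). From E11.5 to E13.5 XY cells gained 0.74, and XX cells 2.54 ± 0.18 (adjusted p = 7.3e-18). XX stromal cells also gained 1.16 of *Adamts16* (adjusted p = 2.44e-06) and had less *Adamts18*, which fell by 0.78 (adjusted p = 1.05e-06) over this time. With stage, 6 members were called in XY (12.2%, against 5.05% of all clusters) and 6 in XX cells (12.2%, against 4.24%).

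**Figure D3:**
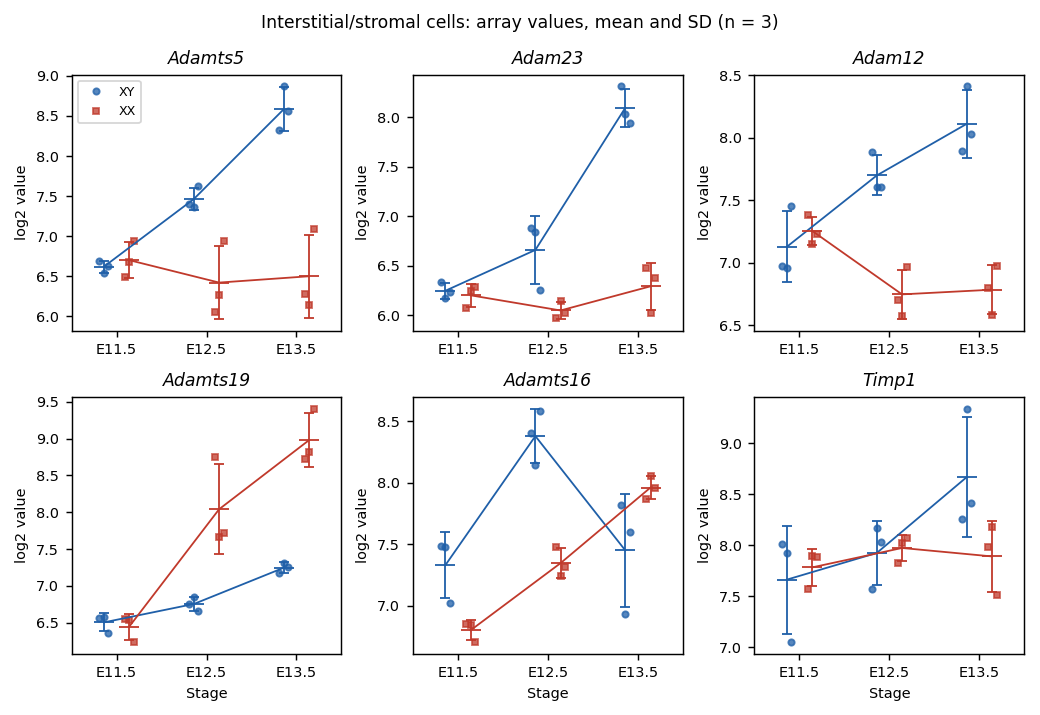
Log2 values of 6 members in interstitial (XY) and stromal (XX) cells by stage. Points are arrays (XY left, XX right at each stage), marks and bars the mean and SD of 3 arrays, and each panel has its own axis. *Adamts5*, *Adam23* and *Adam12* separate the sexes upward in XY cells, *Adamts19* upward in XX cells, and the XY arrays of *Timp1* at E13.5 are spread from 8.26 to 9.34.

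In germ cells, which enter meiosis in XX and mitotic arrest in XY gonads over these days, no member was called between the sexes at E11.5 (limma, 0 of 49, against 0.172% of all clusters), where 1 member had an unadjusted p under 0.05. At E12.5 4 members (8.16%, against 2.86% of all clusters) and at E13.5 5 (10.2%, against 12%) were called, all of them higher in XX cells. The clusters called higher in XX cells made up 1.92% and 6.16% of all clusters at these stages.

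*Adam22* read 6.54, 6.51 and 6.59 in XY germ cells at E11.5, 7.15, 7.02 and 6.99 at E12.5 and 7.37, 7.90 and 7.78 at E13.5. In XX germ cells it read 7.12, 7.16 and 7.06 at E11.5, 8.00, 8.49 and 8.45 at E12.5 and 8.70, 9.10 and 9.22 at E13.5. It rose with stage in both sexes, by 1.14 ± 0.12 in XY cells (adjusted p = 1.56e-11) and by 1.89 ± 0.12 in XX cells (adjusted p = 9.49e-21), and every XX array lay above every XY array of its stage. XY minus XX was -0.57 at E11.5 (1.48-fold, under the limit), -1.26 ± 0.12 at E12.5 (adjusted p = 1.75e-12) and -1.32 ± 0.12 at E13.5 (adjusted p = 6.3e-14).

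*Adam10* also rose in both sexes from E11.5 to E13.5, by 1.04 in XY (adjusted p = 1.34e-07) and 1.65 in XX germ cells (adjusted p = 3.76e-14). At E13.5 it read 8.35, 8.11 and 8.07 in XY cells, against 8.63, 8.87 and 9.11 in XX cells (-0.69), and at E12.5 the difference was -0.72. Both of these came under the limit on the fold when 1 array was left out, with -0.57 without XY replicate 1 at E12.5 and -0.58 without XX replicate 3 at E13.5. *Adam19* fell in both sexes to the same extent. Its averages at the successive stages were 9.87, 9.38 and 8.69 in XY cells and 9.74, 9.25 and 8.58 in XX cells, a change of -1.18 ± 0.14 in XY and -1.16 ± 0.14 in XX cells (adjusted p = 7.24e-10 and 8.86e-10). *Adam22* and *Adam19* thus moved in opposite directions within the same arrays. With stage, 4 members were called in XY (8.16%, against 9.86% of all clusters) and 5 in XX germ cells (10.2%, against 15.1%).

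*Timp2* had 6.76, 6.52 and 6.99 in XY germ cells at E12.5, against 7.38, 7.72 and 7.83 in XX cells, and 6.56, 6.35 and 6.28 in XY cells at E13.5, against 7.67, 7.62 and 7.18 in XX cells. No XY array reached an XX array, and XY minus XX was -0.89 (adjusted p = 0.00123) and -1.09 (adjusted p = 8.01e-06). *Adam23* read 7.05, 6.33 and 6.27 in XY cells at E13.5, against 7.56, 7.26 and 8.13 in XX cells (-1.10 ± 0.16, adjusted p = 6.9e-08), which is the opposite direction to interstitial cells. *Adamts9* was also called in germ cells at E13.5, with 7.24, 7.38 and 7.37 in XY cells, against 8.77, 7.87 and 8.13 in XX cells (-0.93), and lost its call without XX replicate 1 (-0.67, adjusted p = 0.0979). Its call at E12.5 (-0.86, adjusted p = 0.0399) was lost without XY replicate 2 or 3 or XX replicate 1 or 3 (-0.66 to -0.88, adjusted p between 0.0762 and 0.288). At that stage same-numbered XY and XX pools deviated together (r = 0.129, 0.135 and 0.208 over clusters), and with the replicate number as a block the call of *Adamts9* was also lost (adjusted p = 0.0527), while those of *Adam22*, *Adam10* and *Timp2* were kept. In the germ cell sort at E13.5, Sertoli markers averaged 6.93 in XY and 6.53 in XX cells. Interstitial and mesenchymal markers averaged 6.57 in XY and 6.53 in XX cells. Levels of pre-granulosa markers in this sort are not given here, and 2 of 7 mesonephric epithelium markers were highest in germ cells. The part of somatic cells in the differences of the members was not tested.

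**Figure D4:**
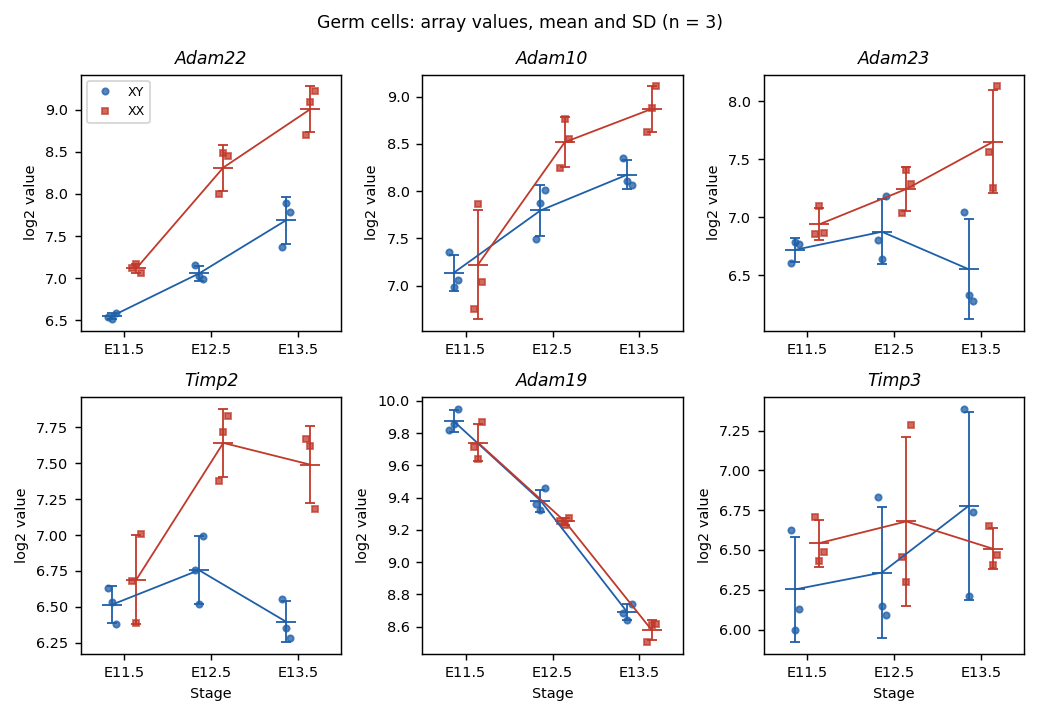
Log2 values of 6 members in germ cells by stage. Points are arrays (XY left, XX right at each stage), marks and bars the mean and SD of 3 arrays, and each panel has its own axis. *Adam22* and *Adam10* rise in both sexes and further in XX cells, *Adam19* falls alike in both, and *Timp3* stays between 6.00 and 7.39.

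In the endothelial (*Flk1-mCherry*) sort 1 member was called between the sexes at E11.5 (2.04%, against 1.21% of all clusters), 2 at E12.5 (4.08%, against 2.05%) and 3 at E13.5 (6.12%, against 3.68%). *Timp1* read 9.92, 9.29 and 9.68 in XY cells at E13.5, against 8.50, 7.94 and 8.07 in XX cells, and the sexes overlapped at the earlier stages. The difference was 1.46 ± 0.22 (2.76-fold, adjusted p = 7.27e-07), and XY cells gained 1.78 ± 0.22 from E11.5 to E13.5 (adjusted p = 2.75e-09). According to the study the XY sort contained Leydig cells. Fetal Leydig markers averaged 6.22 at E11.5, 8.44 at E12.5 and 10.25 at E13.5 in the XY sort, against 6.06, 6.07 and 6.14 in the XX sort, with 7 of 8 markers called at E12.5 and 8 of 8 at E13.5. Their part in the difference of *Timp1* was not tested.

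**Figure D5:**
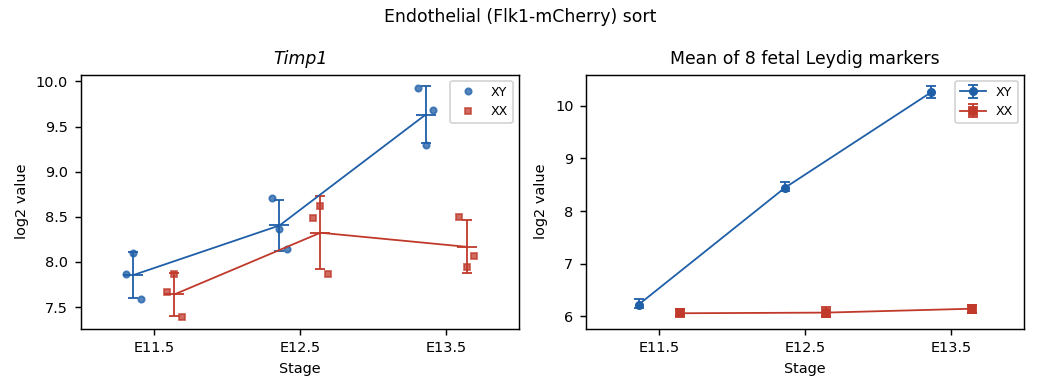
Left, log2 values of *Timp1* in the endothelial sort by stage (points are arrays, XY left and XX right, with mean and SD of 3 arrays). Right, mean log2 value of 8 fetal Leydig markers in the same arrays, with bars from the lowest to the highest array. Both panels rise with stage in the XY sort, and the Leydig markers stay between 5.99 and 6.22 in the XX sort.

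*Adam12* was called higher in XY cells of the endothelial sort at E12.5 and E13.5 and was not called at E11.5. At E11.5 it read 8.53, 7.82 and 8.03 in XY cells, against 8.64, 8.75 and 8.67 in XX cells. That difference (-0.56) was under the limit on the fold, and the lowest array, XY replicate 2, lay farthest from all others. *Adam12* had 8.39, 8.80 and 8.69 in XY cells at E12.5, against 8.02, 8.02 and 7.77 in XX cells. At E13.5 the values were 8.63, 8.82 and 8.51 in XY cells, against 7.39, 7.54 and 7.62 in XX cells. The XX level fell by 1.17 from E11.5 to E13.5 (adjusted p = 1.84e-09), and the sexes differed by 0.69 at E12.5 (adjusted p = 0.000542, or 0.0999 in a fit of the 2 groups alone) and by 1.14 ± 0.14 at E13.5 (adjusted p = 1.6e-09). The part of the Leydig cells of the XY sort in the differences of *Adam12* and other members was not tested. *Adamts1* fell by 1.42 in XX endothelial cells from E11.5 to E13.5 (adjusted p = 7.37e-05), and the dissection of this sort changed after E11.5. The remaining calls between the sexes, *Adamts1* at E11.5, *Mmp2* at E12.5 and *Adamts5* at E13.5, were not stable to the loss of single arrays. *Adamts1* (-0.87) was not called without XY replicate 2, the array farthest from all others (-0.54, adjusted p = 0.679), XY replicate 3 (-0.94) or XX replicate 1 (-0.98), 2 (-0.98) or 3 (-0.65). *Mmp2* (0.59) was not called without any 1 of the arrays other than XX replicate 2 (0.52 to 0.63, adjusted p between 0.0759 and 0.139). *Adamts5* (0.76) was not called without XY replicate 2 (0.44, adjusted p = 0.347) or XX replicate 1 (0.66) or 2 (0.68). With stage, 3 members were called in XY (6.12%, against 7.19% of all clusters) and 5 in XX endothelial cells (10.2%, against 2.68%).

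Between the sexes, the *aSma-EYFP* population had no call at E11.5 (limma, 0 of 49, against 0.231% of all clusters, 2 members at an unadjusted p under 0.05), 3 at E12.5 (6.12%, against 3.55%) and 4 at E13.5 (8.16%, against 3.8%). *Adamts5* read 8.30, 8.30 and 8.40 in XY cells at E13.5, against 6.77, 7.27 and 7.49 in XX cells (1.16 ± 0.21, adjusted p = 2.67e-05). *Adam23* read 6.71, 6.92 and 7.04 in XY cells, against 5.84, 6.01 and 6.19 in XX cells at that stage (0.87 ± 0.16, adjusted p = 3.37e-05). The sexes did not overlap for either gene, and the directions were those of interstitial/stromal cells. *Mmp2* had 10.68, 11.03 and 10.60 in XY cells at E12.5, against 9.93, 10.02 and 10.01 in XX cells (0.78 ± 0.18, adjusted p = 0.00167). *Adamts5* at E12.5 (0.86) was not called without XX replicate 3 (0.72, adjusted p = 0.0623). Fetal Leydig markers averaged 8.80 in XY and 6.54 in XX cells at E13.5, and their part was not tested. From E11.5 to E13.5 *Adamts19* gained 1.27 ± 0.18 in XX *aSma-EYFP* cells (adjusted p = 1.95e-07). With stage, 9 members were called in XY (18.4%, against 5.97% of all clusters) and 5 in XX *aSma-EYFP* cells (10.2%, against 3.94%).

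Over the 10 comparisons of E13.5 with E11.5, 56 of 490 member tests were called (11.4%, against 7.36% of all tests), 39 of them upward (background 4.26%) and 17 downward (3.1%). The sex difference was also compared between E13.5 and E11.5 in each population and, at E13.5, between populations, in 7 interaction contrasts. Of 343 member tests 42 were called (12.2%, against 6.32% of all tests). The members described next had been picked in part for large sex differences in single populations and stages, and such a choice favours calls of this kind. At E13.5, XY minus XX of *Mmp2* was 2.33 in supporting and 0.40 in interstitial/stromal cells, and the interaction was -1.93 ± 0.25 (adjusted p = 1.06e-08). *Adamts5* and *Adam23* differed in the other direction, with interactions of 1.72 ± 0.29 (adjusted p = 6.23e-06) and 1.61 ± 0.22 (adjusted p = 5.79e-08). *Adamts1*, *Mmp16*, *Mmp14* and *Timp2*, all higher in XX supporting cells, had sex differences that were 1.20 to 1.57 less negative or more positive in interstitial/stromal cells.

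Genes that work with these proteases, but are not chosen by the symbol rule, were counted beside them. In supporting cells *Vcan*, versican and thus a substrate of ADAMTS1, ADAMTS5 and ADAMTS9, averaged 9.16 at E11.5, 10.17 at E12.5 and 9.14 at E13.5 in XY cells, against 6.62, 7.08 and 7.14 in XX cells (differences 2.54, 3.10 and 2.00). *Pcolce*, the enhancer of procollagen C-proteinases, averaged 11.09 in XY and 9.35 in XX cells at E13.5. *Plat*, tissue plasminogen activator, averaged 9.99 in XY and 7.29 in XX cells at E11.5 (2.69) and 8.85 in XY and 8.90 in XX cells at E13.5. *Tspan15*, a tetraspanin that binds ADAM10, averaged 9.61 in XY and 7.26 in XX cells at E12.5, while *Adam10* itself was not called between the sexes in supporting cells (XY minus XX -0.39, 1.31-fold, at E13.5). *Reck*, a membrane-anchored MMP inhibitor, had XY minus XX differences of -0.71 at E12.5 and -0.92 at E13.5. *Ereg*, an EGF family ligand released by shedding, averaged 4.95 in XY cells, under the log2 limit of 6 where values are compressed, and 8.59 in XX cells at E12.5. Such differences were not limited to supporting cells. At E13.5 *Vcan*, *Pcolce*, *Tspan15* and *Ereg* were called in the same directions in interstitial/stromal cells (1.79, 0.94, 1.35 and -1.24). *Vcan* and *Pcolce* were also called in the endothelial sort (1.85 and 2.24), and *Vcan* in *aSma-EYFP* cells (2.17). The lists of such genes held calls in both directions. At E11.5, 2 of 9 proteoglycan and matrix substrates, 1 of 4 genes of the plasmin system and 1 of 8 ADAM partners were higher in XY supporting cells (3.77% of all clusters), and 1 of 5 shed EGF family ligands was lower (2.67%). At E12.5, 1 of 9 substrates, 1 of 4 plasmin genes, 2 of 8 ADAM partners, 2 of 8 activators and inhibitors and 1 of 5 procollagen C-proteinases and enhancers were higher (9.67%), whereas 1 of 8 activators and inhibitors and 1 of 5 ligands were lower (7.08%). At E13.5, 1 of 9 substrates, 2 of 8 ADAM partners, 1 of 8 activators and inhibitors and 1 of 5 procollagen genes were higher (8.63%). At the same stage 1 of 9 substrates, 1 of 4 plasmin genes, 1 of 8 ADAM partners, 2 of 8 activators and inhibitors, 1 of 5 procollagen genes and 1 of 5 ligands were lower (7.51%). *Fbn2*, a fibrillin, was thus higher in XY cells at E11.5 (1.57) and lower at E13.5 (-0.78), and *Plau*, urokinase, was lower at E13.5 (-0.66).

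Across lineages, 5 of 9 substrates, 2 of 8 activators and inhibitors and 1 of 5 ligands were highest in interstitial/stromal cells (1.89% of all clusters). Lowest in germ cells were 3 of 9 substrates, 3 of 8 activators and inhibitors, 2 of 5 procollagen genes, 1 of 8 ADAM partners and 1 of 4 plasmin genes (6% of all clusters). In germ cells *Hbegf*, a ligand released by ADAM proteases, averaged 7.38 in XY and 8.26 in XX cells at E12.5 (-0.88, adjusted p = 0.00132), the direction of *Adam10*, *Adam22* and *Timp2* there.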

How the data were processed

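The RNA of sorted cells was amplified and hybridized to Affymetrix Mouse Gene 1.0 ST arrays. The authors deposited log2 values that, by their methods, were made with RMA in Partek Genomics Suite (background correction with adjustment for probe GC content and sequence, quantile normalization, median polish). By these methods all 91 arrays were processed together for the study of *aSma-EYFP* cells and 72 arrays for its other parts, and which of these runs gave the deposited table of 91 arrays is not given in the sources used here. These steps pull the arrays to a common distribution and compress low values, so that differences of dim genes are understated. The table holds 35557 clusters, of which 21789 list a single gene and were used. Clusters with several genes (1621) or none listed (12147) were left out.

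Values were kept as deposited. A cluster was tested where its log2 value exceeded 6 on 2 of the 3 arrays of some group (16859 clusters). Groups were compared with limma 3.58.1 in R 4.3.3 (1 mean for each of 30 groups, 60 residual degrees of freedom, eBayes), with Benjamini-Hochberg adjustment over all clusters tested, and called at an adjusted p under 0.05 and a fold over 1.5. The methods set the same 2 numbers as limits, but on a p-value of pairwise comparisons that they do not describe as adjusted, with the false discovery of each gene list estimated by permutation. Standard errors are those of this fit, and SD is given over 3 arrays. Only 3 arrays per group limit the precision. The fit was tested on simulated data. The members, marker lists and gene lists were chosen with earlier results of these data known. Named were a fixed list (the TIMPs, *Mmp2*, *Mmp9*, *Mmp11*, *Mmp14*, *Adam10*, *Adam17*, *Adamts1*, *Adamts5*, *Adamts9*, *Adamts16* and *Adamts19*) and, by size, up to 3 called members per direction without overlap of arrays between the sexes, up to 5 per lineage and up to 2 per direction with stage. Other names were chosen after their values were seen. The samples were not treated as paired by replicate number in the main fit. Correlations of the deviations of same-numbered XY and XX samples were all over 0.1 only in germ cells at E12.5. Single pairs were over 0.1 in other comparisons, and such correlations cannot show that pools were collected apart. Alternatives were other filters, call rules and normalizations, a trended and robust eBayes, the mean of all clusters of a gene, fits without *aSma-EYFP* arrays, without single replicates or arrays, with a replicate block, and of the 2 groups alone. Promoters were matched by symbol for 44 of 74 members, and protein sequences were not used here. Symbols are those of the platform annotation. *Adamts2* and *Mmp15* had no cluster of their own and were not analysed here. The reporter of the interstitial/stromal sort and a comparison that rests on it are not reported here.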

Additional observations from a re-analysis of the deposited data

Results flagged for a closer look

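The sex difference of a member was compared between stages and between populations with limma interaction contrasts, 175 tests over 25 named members, of which 38 were called in 17 members. Over all 49 members 42 of 343 tests were called (12.2%), against 6.32% of all tests. Many of the named members were picked for large sex differences in a single population or stage of the same arrays, which favours such calls. Groups of 3 arrays are too small for an outlier test. Each value is a difference of differences on the log2 scale, positive where XY minus XX was larger in the first-named group.

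In supporting cells, at E13.5 less E11.5, the values were -2.41 for *Adamts19*, -1.79 for *Mmp16*, -1.40 for *Mmp14*, -1.05 for *Timp2*, -0.75 for *Adamts16*, 0.77 for *Mmp23* and 0.59 for *Adam8*. In interstitial/stromal cells they were 2.16 for *Adamts5*, -1.79 for *Adamts19*, 1.76 for *Adam23*, 1.46 for *Adam12* and -1.04 for *Adamts16*. *Adamts19* thus shifted toward XX cells with stage in both populations. *Adamts16*, *Adamts5* and *Adam23* had values of -1.29, 1.18 and 0.98 in *aSma-EYFP* cells, with the signs they had in interstitial/stromal cells. In endothelial cells the values were 1.70 for *Adam12*, 1.25 for *Timp1* and 1.21 for *Adamts1*, and in germ cells -0.92 for *Timp2*, -0.88 for *Adam23* and -0.75 for *Adam22*. The dissection of the endothelial sort changed after E11.5. The E11.5 difference of *Adamts1* in this sort was not called without XY replicate 2 (-0.54), the array that also had the lowest E11.5 value of *Adam12*. Results without single arrays are not given for these interactions.

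At E13.5, interstitial/stromal less supporting cells gave -1.93 for *Mmp2*, 1.72 for *Adamts5*, 1.61 for *Adam23*, 1.57 for *Adamts1*, 1.503 for *Mmp16*, 1.28 for *Mmp14*, 1.20 for *Timp2*, -1.14 for *Adamts16*, 1.00 for *Adam19*, -0.93 for *Mmp23*, -0.93 for *Mmp11* and 0.71 for *Adam12*. Endothelial less interstitial/stromal cells gave 1.63 for *Adamts19*, -1.51 for *Adam23*, -1.32 for *Adamts5*, -0.96 for *Adam19* and -0.60 for *Adam15*.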

How the results depend on the processing

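Without the limit on the fold, members highest in supporting cells numbered 7 (2 with it), in interstitial/stromal cells 11 (5), in germ cells 5 (1), in endothelial cells 9 (2), and calls with stage 86 (56). The other summed counts stayed within 1.5 times under the alternatives run. No named difference reversed. Of 118 called differences, 116 were called with no filter, 114 after quantile normalization of the 90 arrays, 118 with a trended and robust eBayes, 117 with the mean of all clusters, and 93 of 97 without *aSma-EYFP* arrays. Without replicate 1, 2 or 3 of every group 96, 87 and 88 were called, and 38 were lost without at least 1 array. Without a replicate number 51 were lost, of which 14 held without each single array. Among these, the sex differences described were *Timp3* (0.58 without replicate 1) in supporting cells at E11.5, *Adamts5* (0.89, adjusted p = 0.064, without replicate 1) in interstitial/stromal cells, *Mmp2* (0.80, adjusted p = 0.0896, without replicate 1) in *aSma-EYFP* cells, *Timp2* (-0.73, adjusted p = 0.189, without replicate 2) in germ cells and *Adam12* (0.58, adjusted p = 0.0872, without replicate 3) in endothelial cells at E12.5, and *Adam19* (0.53 without replicate 2) in interstitial/stromal cells at E13.5. The stage differences described were *Mmp16* in XX supporting cells (0.74, adjusted p = 0.0541, without replicate 2), *Adam8* in XY supporting cells (-0.55 without replicate 2) and *Adamts19* in XY interstitial cells (adjusted p = 0.06 without replicate 2 and 0.0562 without replicate 3). Leaving out 1 array in comparisons of stages was added after seeing the data. A fit of the 2 groups alone kept 49 of 62 sex differences. Over the 45 pairs of same-numbered samples r lay between -0.309 and 0.364, and every pair was over 0.1 in 1 of 15 comparisons (germ cells at E12.5). With the replicate block 8, 22 and 30 calls were made between the sexes at E11.5, at E12.5 and at E13.5, and 60 of 62 were kept, the others being *Adamts9* in germ cells and *Mmp2* in endothelial cells (adjusted p = 0.0524), both at E12.5.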

Other observations

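On the array of the whole newborn mouse, a sample without replicate that entered no comparison, 7 of the 74 members (9.46%) read higher than on every sorted-cell array, a share close to the 9.51% of all 19938 genes. *Mmp13*, a collagenase known from bone and cartilage, read 8.22 in the whole mouse, against at most 5.68 in sorted cells. *Mmp9* read 7.37, against at most 6.30. The others were *Mmp8* (5.56, against at most 5.14), *Adamtsl5* (7.16, against at most 7.03), *Mmp24* (6.46, against at most 6.43), *Mmp19* (6.47 in both) and *Adam20* (5.25 in both). *Mmp13* and *Mmp8* stayed under the limit for testing in the sorted cells.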
